A study of Rattus norvegicus with 8 samples.

Results

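The enzymes that write, erase and read DNA methylation and histone acetylation or methylation were examined in rat liver, as a list of 40 genes chosen by name. A gene was a member if its symbol in the deposited table matched the list exactly, and 38 of the 40 were found among the 15115 genes of the table. Hdac6 and Suv39h1 had no row under those symbols. The livers came from male F344 rats of wild-type genotype, labelled as 1 year old, in a study that ran for 60 weeks. In the CDAA_PTS group, 4 rats ate a choline-deficient, amino acid-defined diet (CDAA) with pterostilbene, a dimethylated relative of resveratrol, at 1.34 g per kg of diet, after 3 weeks on a choline-sufficient diet that also held the compound. In the CDAA group, 4 rats ate the choline-deficient diet without it, after 3 weeks on the choline-sufficient diet alone. Lack of choline, common to both groups, leads in rats to fatty liver, scarring and liver cancer. Liver pieces were taken from tumours, nodules or, where there was no tumour, normal tissue, and the labels do not tie a library to any of these.

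DNA methyltransferases place methyl groups on cytosine, TET enzymes oxidize them, and glycosylases such as TDG cut out the oxidized base so that repair can restore cytosine. Histone acetyltransferases and deacetylases raise and lower acetylation, which generally marks open chromatin. Polycomb repressive complex 2 and the H3K9 methyltransferases place methyl marks linked to silencing. Several of these enzymes draw on metabolism directly: methyltransferases use S-adenosylmethionine, whose supply in liver depends on choline and methionine, and sirtuins use NAD. The series title places the effect of pterostilbene at epigenetic control that depends on AMPK, so the comparison asks here whether the transcripts of these enzymes differed between the diets.

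Between the diets 1 of the 38 enzymes passed the threshold: Dnmt3a, a de novo DNA methyltransferase, was lower in CDAA_PTS livers. The other 37 did not pass. The values are those of the authors' deposited table, which holds 1 level per diet group in FPKM (a level scaled to transcript length and sequencing depth) and the results of edgeR, DESeq2 and Cuffdiff, but nothing per rat. Fold changes are log2 of CDAA_PTS over CDAA, and a gene was called at an edgeR adjusted p under 0.05 over all genes. Of the enzymes 2.63% were called in the authors' deposited table, against 3.41% of all genes, and 1 enzyme was called lower where 1.95% of all genes were. DESeq2 also called 1 enzyme, where it calls 4.46% of the genes it tested, and Cuffdiff called 0, where it calls 5.51%, in the authors' deposited table. With the edgeR threshold at 0.1 the count stayed at 1 (5.27% of all genes called) and at 0.01 it was 0 (1.41% of all genes called). An unadjusted edgeR p under 0.05 was reached by 6 enzymes, or 15.8%, against 14.6% of all genes in the authors' deposited table. The median edgeR log2 fold change was 0.01 over the enzymes and 0.01 over all genes, with 20 enzymes above 0 and 18 below. The median size of the change, sign ignored, was 0.14 for the enzymes and 0.13 for the 10408 genes of the table within the same range of abundance. In bulk tissue, fewer cells of a type and less RNA per cell cannot be told apart. Since no library is tied to tumour, nodule or normal tissue, diet and the kind of piece cannot be told apart either.

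The enzymes were moderately expressed. Their FPKM levels had a median of 7.20 in CDAA_PTS and 7.24 in CDAA livers, beside medians of 6.39 in CDAA_PTS and 6.49 in CDAA livers over all genes. Their mean abundance over all libraries ran from 3.28 CPM (mapped-read counts scaled to library size) for Sirt4 to 162 CPM for Crebbp, and 27 of the 38 lay above the median gene of the table, which had 12.9 CPM. The order of the FPKM levels was led by Hdac3, Sirt2, Sirt3, Sirt5 and Mbd2 in CDAA_PTS livers, at 20.8 or more, while Tet1 stood lowest in both groups. No spread between rats comes with these levels, so neighbours in the order cannot be told apart by a test.

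**Figure D1:**
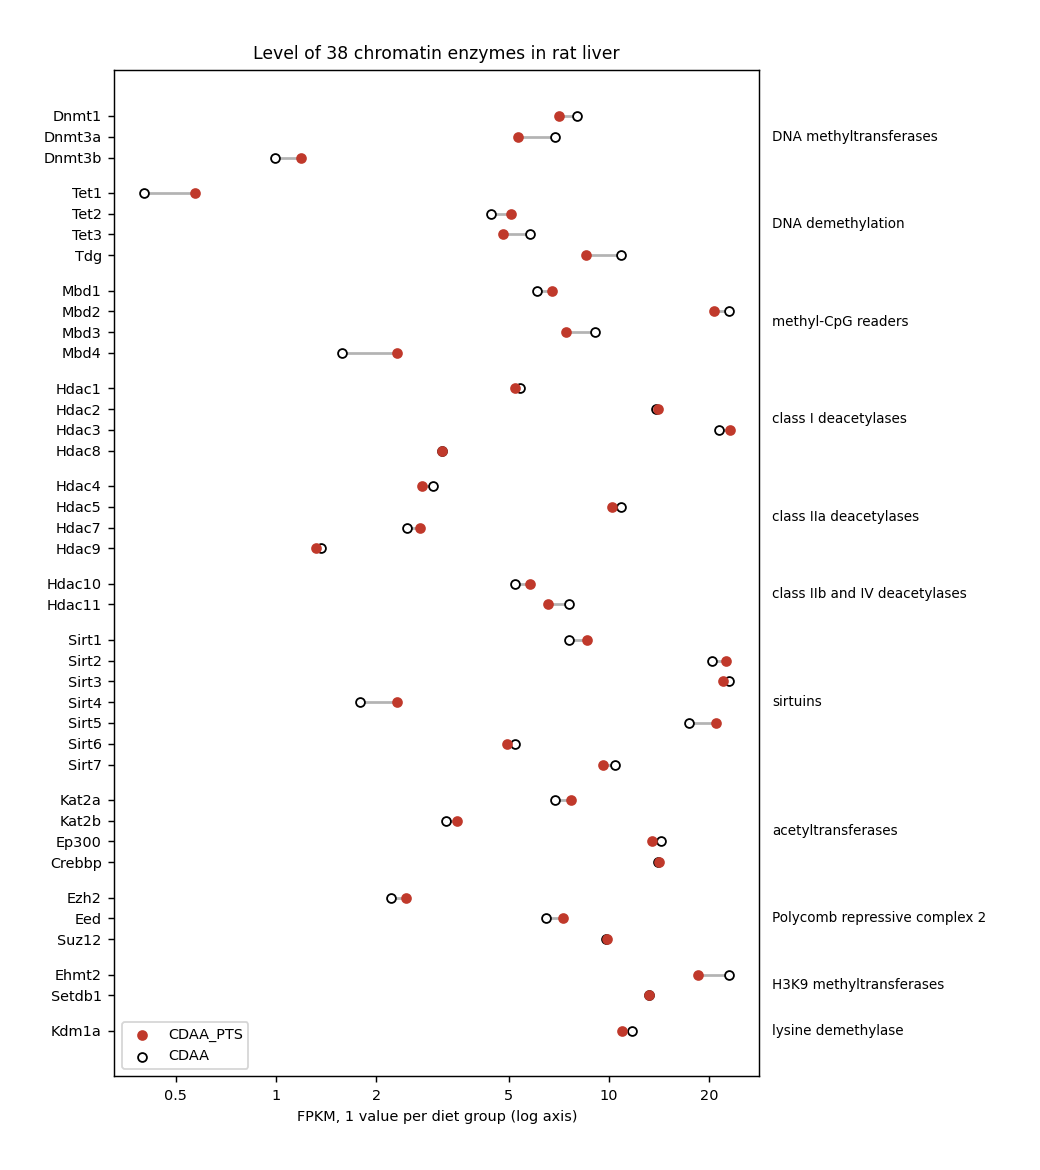
FPKM level of each of the 38 enzymes (log axis), grouped by class; filled points are CDAA_PTS and open points CDAA, with 1 value per diet group and no error. The groups lie close together for most enzymes. The widest gaps are at Mbd4 (2.31 in CDAA_PTS, 1.58 in CDAA) and Tet1 (0.571 in CDAA_PTS, 0.400 in CDAA). Next come Dnmt3a (5.35 in CDAA_PTS, 6.90 in CDAA), Sirt4 (2.30 in CDAA_PTS, 1.79 in CDAA) and Tdg (8.52 in CDAA_PTS, 10.9 in CDAA).

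Among the DNA methyltransferases, Dnmt3a was lower in CDAA_PTS livers. Dnmt1, which copies methylation to the new strand after replication, and Dnmt3b, the other de novo enzyme, did not pass. Dnmt3a (ENSRNOG00000026649) lies on chromosome 6 of rn6 between 28235694 and 28340577 as the table gives its locus. Its level was 5.35 FPKM in CDAA_PTS and 6.90 FPKM in CDAA livers. In the authors' deposited table its edgeR log2 fold change was -0.33 with an adjusted p of 0.0481, just inside the threshold. DESeq2 gave a moderated value of -0.32 with an SE of 0.09 and an adjusted p of 0.0215, and Cuffdiff a ratio of -0.37 with an adjusted p of 0.143, which did not pass, in the authors' deposited table. A 95% interval of 1.96 SE each side of the DESeq2 value ran from -0.50 to -0.14. The Dnmt3a locus is shared with the unnamed row AABR07063314.1, which had 0.863 mean CPM against 29.9 for Dnmt3a, and the part of that row in the Dnmt3a value was not tested.

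Dnmt1 had 7.09 FPKM in CDAA_PTS and 8.01 FPKM in CDAA livers, and Dnmt3b, the least abundant of these methyltransferases, had 1.19 FPKM in CDAA_PTS and 0.995 FPKM in CDAA livers. The edgeR log2 fold changes in the authors' deposited table were -0.17 for Dnmt1 (adjusted p 0.575) and 0.31 for Dnmt3b (adjusted p 0.693). The ratio of Dnmt3a to Dnmt3b in FPKM was 4.49 in CDAA_PTS and 6.93 in CDAA livers. Whether the changes of Dnmt3a and Dnmt3b differ from each other was not tested, since the Dnmt3b interval from DESeq2, -0.17 to 0.60, is wide and no values per rat were analysed here. Dnmt1 made up 52.0% of the summed methyltransferase FPKM in CDAA_PTS and 50.4% in CDAA livers.

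The windows around the RefSeq gene starts of Dnmt3a, Tdg and Mbd4 are shown because Dnmt3a was the called enzyme and because the glycosylases Tdg and Mbd4, which act on the same kind of mispaired base, had opposite signs. Each window holds 250 bases before and 50 after the start, 5′ to 3′ on the gene's strand, in the RefSeq build GRCr8, which differs from the rn6 build of the expression table. The positions are chr6:32598352-32598651 on the plus strand for Dnmt3a, chr7:22985051-22985350 on the minus strand for Tdg and chr4:150577377-150577676 on the minus strand for Mbd4. Capitals mark the E-box CACGTG, bound by clock factors and by MYC and USF proteins, and GCGTG, the core to which the aryl hydrocarbon receptor binds, each searched on both strands; matches of the pair can share no more than an end base.
Dnmt3a: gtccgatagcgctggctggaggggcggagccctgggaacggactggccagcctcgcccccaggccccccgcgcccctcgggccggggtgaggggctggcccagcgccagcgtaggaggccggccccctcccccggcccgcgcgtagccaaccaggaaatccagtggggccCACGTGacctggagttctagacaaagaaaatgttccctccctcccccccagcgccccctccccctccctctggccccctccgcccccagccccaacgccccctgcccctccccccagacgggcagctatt
Tdg: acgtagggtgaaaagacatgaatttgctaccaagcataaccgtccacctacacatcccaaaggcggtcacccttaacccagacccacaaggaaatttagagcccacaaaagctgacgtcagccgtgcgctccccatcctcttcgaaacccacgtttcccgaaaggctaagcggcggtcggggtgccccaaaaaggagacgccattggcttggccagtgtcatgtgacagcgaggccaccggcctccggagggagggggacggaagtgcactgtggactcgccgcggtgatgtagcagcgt
Mbd4: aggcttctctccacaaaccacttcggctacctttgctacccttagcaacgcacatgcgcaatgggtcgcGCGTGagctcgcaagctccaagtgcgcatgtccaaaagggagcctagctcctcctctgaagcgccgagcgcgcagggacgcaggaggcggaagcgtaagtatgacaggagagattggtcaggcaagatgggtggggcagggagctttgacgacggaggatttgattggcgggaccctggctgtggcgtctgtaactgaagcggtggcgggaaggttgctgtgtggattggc
Each of these windows holds 21 CG dinucleotides, against a median of 7 in the 33469 windows of RefSeq and 19 in the 11686 windows of genes that the expression table also lists. The Dnmt3a window has 1 E-box and no GCGTG, the Mbd4 window has 1 GCGTG and no E-box, and the Tdg window has neither. Of the 34 enzymes matched to RefSeq windows, 32 had a single window, with a median of 23 CG and a range of 2 for Hdac9 to 48 for Crebbp. An E-box was in 4 of the 32 windows, or 12.5%, against 6.42% of all windows and 8.64% of windows of listed genes. GCGTG was in 16 of the 32, or 50%, against 29.7% of all windows and 46.5% of windows of listed genes. A match of letters is not evidence that a factor binds there.

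Of the genes that remove DNA methylation, none was called, and they did not share a direction. The dioxygenases Tet2 and Tet3, which oxidize 5-methylcytosine, were present at similar FPKM. Tet3 had 4.81 FPKM in CDAA_PTS and 5.81 FPKM in CDAA livers, and Tet2 had 5.10 FPKM in CDAA_PTS and 4.43 FPKM in CDAA livers. By these levels Tet3 was the lower of them in CDAA_PTS and the higher in CDAA, but that order was not tested. The edgeR log2 fold changes in the authors' deposited table were -0.27 for Tet3 (p 0.0111, adjusted p 0.156) and 0.20 for Tet2 (p 0.0572, adjusted p 0.364). Tet1 was scarce, with 0.571 FPKM in CDAA_PTS and 0.400 FPKM in CDAA livers, with an edgeR log2 fold change of 0.52 (adjusted p 0.446) in the authors' deposited table and no Cuffdiff test. Tdg, the glycosylase that excises oxidized 5-methylcytosine as well as thymine mispaired with guanine, had 8.52 FPKM in CDAA_PTS and 10.9 FPKM in CDAA livers. In the authors' deposited table its edgeR log2 fold change of -0.35 (p 0.00645, adjusted p 0.113) was the lowest of the 38, slightly below that of Dnmt3a, and it did not pass in DESeq2 (adjusted p 0.0984) or Cuffdiff (adjusted p 0.160).

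The methyl-CpG proteins, which bind methylated DNA or belong to complexes that do, held no called gene. Mbd4, a binding protein that is itself a thymine glycosylase, had 2.31 FPKM in CDAA_PTS and 1.58 FPKM in CDAA livers. In the authors' deposited table its edgeR log2 fold change of 0.54 (p 0.0159, adjusted p 0.192) was the highest of the 38. Its DESeq2 interval ran from 0.06 to 0.76, from a mean of 3.81 CPM. The FPKM ratio of Tdg to Mbd4 was 3.69 in CDAA_PTS and 6.87 in CDAA livers; that difference was not tested. Mbd3, a subunit of the NuRD deacetylase complex, had 7.44 FPKM in CDAA_PTS and 9.10 FPKM in CDAA livers, an edgeR log2 fold change of -0.30 (p 0.0541, adjusted p 0.355) in the authors' deposited table. Mbd2 was the most abundant of these, with 20.8 FPKM in CDAA_PTS and 23.0 FPKM in CDAA livers. The authors' deposited table gives edgeR log2 fold changes of -0.14 for Mbd2 (adjusted p 0.615) and 0.16 for Mbd1 (adjusted p 0.581).

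**Figure D2:**
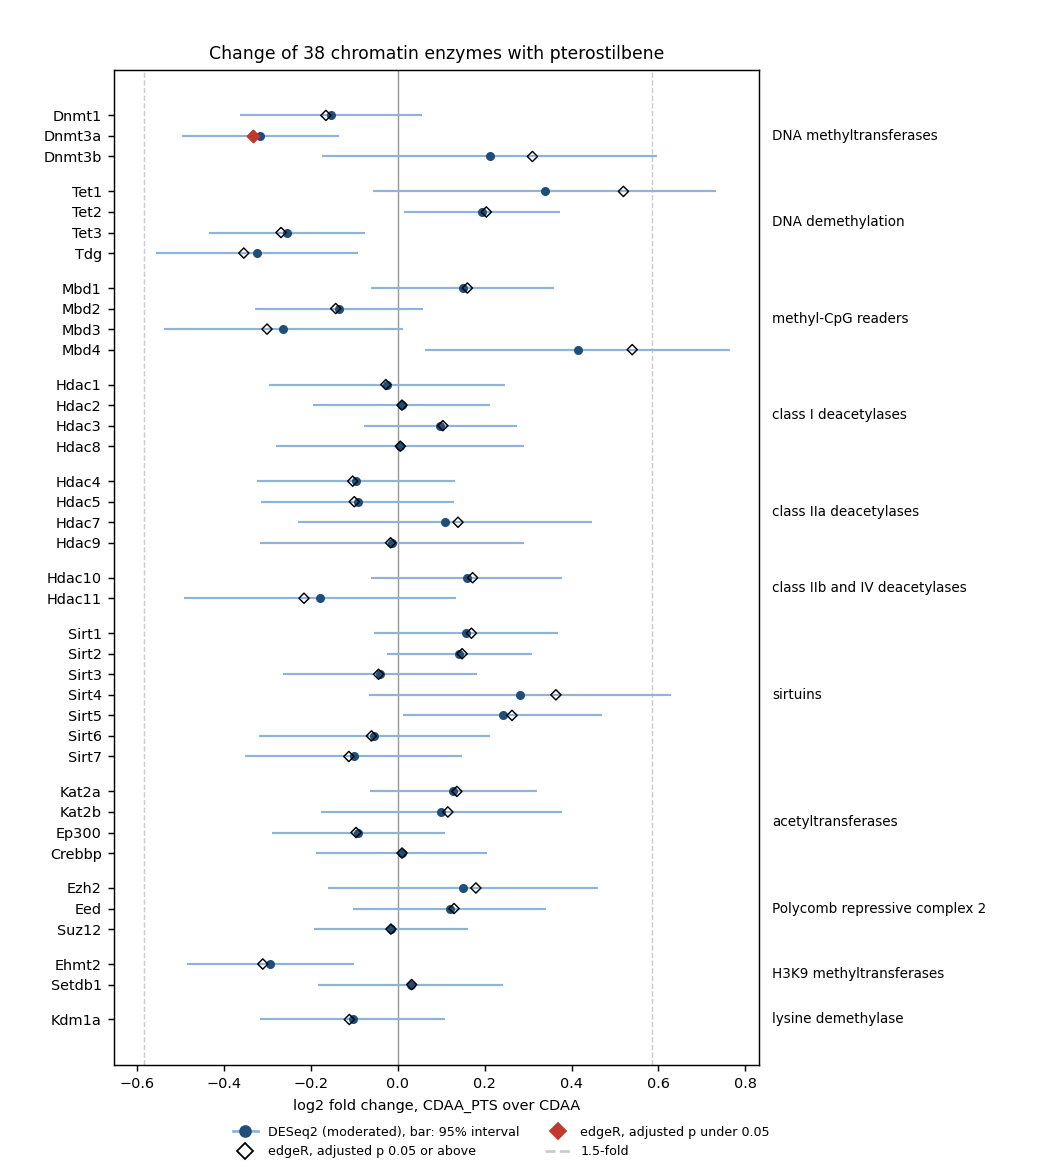
log2 fold change (CDAA_PTS over CDAA) of each enzyme, grouped by class: circles are the DESeq2 values with bars of 1.96 SE each side, diamonds the edgeR values, filled red where the edgeR adjusted p was under 0.05, and dashed lines mark 1.5-fold. Dnmt3a, at -0.33, is the one filled diamond; the DESeq2 bars of 34 of the 38 enzymes lie within 1.5-fold, and those of Dnmt3b, Tet1, Mbd4 and Sirt4 reach past it on the higher side.

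The zinc-dependent histone deacetylases had small differences, and none of the 10 measured had an unadjusted edgeR p under 0.05 in the authors' deposited table, where 14.6% of all genes did. With so few genes, a count of 0 does not set the class apart from that share. In class I, Hdac3, the catalytic subunit of its own corepressor complex, had 23.1 FPKM in CDAA_PTS and 21.4 FPKM in CDAA livers. Its edgeR log2 fold change was 0.10 (adjusted p 0.736) in the authors' deposited table. Hdac2 had 14.1 FPKM in CDAA_PTS and 13.9 FPKM in CDAA livers, and its close paralog Hdac1 had 5.25 FPKM in CDAA_PTS and 5.41 FPKM in CDAA livers. Hdac8 had 3.15 FPKM in both groups. Hdac1, Hdac2 and Hdac8 had edgeR log2 fold changes in the authors' deposited table of -0.03, 0.01 and 0.01, and their DESeq2 intervals ran from -0.30 to 0.25, from -0.20 to 0.21 and from -0.28 to 0.29. Those intervals leave out changes of 1.5-fold or more in either direction, on the moderated scale of DESeq2.

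Class IIa deacetylases, which move between nucleus and cytoplasm under phosphorylation by kinases that include AMPK, had edgeR log2 fold changes between -0.10 and 0.14 in the authors' deposited table (smallest adjusted p 0.808). Hdac5 led the class with 10.3 FPKM in CDAA_PTS and 10.9 FPKM in CDAA livers. Hdac4 had 2.75 FPKM in CDAA_PTS and 2.97 FPKM in CDAA livers, Hdac7 2.71 FPKM in CDAA_PTS and 2.48 FPKM in CDAA livers, and Hdac9 1.32 FPKM in CDAA_PTS and 1.37 FPKM in CDAA livers. Hdac10, a class IIb enzyme that deacetylates polyamines, had 5.81 FPKM in CDAA_PTS and 5.23 FPKM in CDAA livers. Hdac11, the class IV member, had 6.55 FPKM in CDAA_PTS and 7.58 FPKM in CDAA livers. The authors' deposited table gives Hdac10 an edgeR log2 fold change of 0.17 (adjusted p 0.560) and Hdac11 one of -0.22 (adjusted p 0.663).

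The sirtuins, NAD-dependent deacylases, had the largest summed level of the classes, with 91.0 FPKM in CDAA_PTS and 85.9 FPKM in CDAA livers. They were also the largest class, with 7 genes measured against 4 or fewer in each other class. The sum grows with that number and does not rank the classes by level per gene. None of the 7 was called; 4 were above 0 and 3 below. Sirt5, the mitochondrial enzyme that removes succinyl and malonyl groups, had 21.0 FPKM in CDAA_PTS and 17.4 FPKM in CDAA livers. Its edgeR log2 fold change was 0.26 (p 0.0392, adjusted p 0.303) in the authors' deposited table. Sirt1, the nuclear deacetylase often studied with resveratrol and AMPK, had 8.59 FPKM in CDAA_PTS and 7.60 FPKM in CDAA livers. Its edgeR log2 fold change was 0.17 (adjusted p 0.555) in the authors' deposited table, with a DESeq2 interval from -0.05 to 0.37.

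Sirt3, the main mitochondrial deacetylase, had 22.1 FPKM in CDAA_PTS and 23.0 FPKM in CDAA livers, and the authors' deposited table puts its edgeR log2 fold change at -0.04 (adjusted p 0.950). The mitochondrial Sirt4 was scarce, with 2.30 FPKM in CDAA_PTS and 1.79 FPKM in CDAA livers, and the authors' deposited table gives an edgeR log2 fold change of 0.36 (adjusted p 0.454). The mainly cytoplasmic Sirt2 had 22.5 FPKM in CDAA_PTS and 20.4 FPKM in CDAA livers. The authors' deposited table gives edgeR log2 fold changes of 0.15 for Sirt2 (adjusted p 0.538), -0.06 for the chromatin-bound Sirt6 (adjusted p 0.943) and -0.11 for the nucleolar Sirt7 (adjusted p 0.808).

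The acetyltransferases had no called member and no edgeR log2 fold change larger than 0.14 in either direction in the authors' deposited table. Crebbp and Ep300, the paired coactivators CBP and p300, stood at similar FPKM: Crebbp had 14.2 FPKM in CDAA_PTS and 14.1 FPKM in CDAA livers, and Ep300 had 13.5 FPKM in CDAA_PTS and 14.4 FPKM in CDAA livers. The authors' deposited table gives edgeR log2 fold changes of 0.01 for Crebbp (adjusted p 1) and -0.10 for Ep300 (adjusted p 0.794). Their mean abundance was less alike, at 162 CPM for Crebbp and 39.6 CPM for Ep300, whose locus also holds a U6 row, so the FPKM levels of this pair are less certain than their fold changes. Kat2a and Kat2b, the GCN5 and PCAF enzymes of the SAGA and ATAC complexes, were near one another in change: the authors' deposited table gives edgeR log2 fold changes of 0.14 for Kat2a (adjusted p 0.636) and 0.12 for Kat2b (adjusted p 0.842).

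Among histone methylation enzymes, Ehmt2, the H3K9 methyltransferase G9a, came nearest to the threshold. It had 18.5 FPKM in CDAA_PTS and 22.9 FPKM in CDAA livers, an edgeR log2 fold change of -0.31 (p 0.0073, adjusted p 0.122) in the authors' deposited table. DESeq2 gave -0.29 with an SE of 0.10 and an adjusted p of 0.0581, also short of the threshold, in the authors' deposited table. Setdb1, another H3K9 methyltransferase, had 13.2 FPKM in both groups and an edgeR log2 fold change of 0.03 (adjusted p 0.971) in the authors' deposited table, at a locus it shares with Cers2. The row Suv39h1l1, a name that RefSeq lists as a synonym of Suv39h1, fell outside the exact match; it had 1.26 FPKM in CDAA_PTS and 1.16 FPKM in CDAA livers, and its edgeR adjusted p was 0.922 in the authors' deposited table.

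The core of Polycomb repressive complex 2 showed no call. Ezh2, its catalytic subunit and a gene that is usually high in dividing cells, had 2.46 FPKM in CDAA_PTS and 2.21 FPKM in CDAA livers. The scaffold subunits Eed and Suz12 had 7.31 and 9.90 FPKM in CDAA_PTS and 6.49 and 9.81 FPKM in CDAA livers. In the authors' deposited table the edgeR log2 fold changes were 0.18 for Ezh2, 0.13 for Eed and -0.02 for Suz12 (adjusted p 0.763, 0.713 and 0.994). Kdm1a, the LSD1 demethylase of H3K4, had 11.0 FPKM in CDAA_PTS and 11.8 FPKM in CDAA livers, an edgeR log2 fold change of -0.11 (adjusted p 0.766) in the authors' deposited table.

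**Figure D3:**
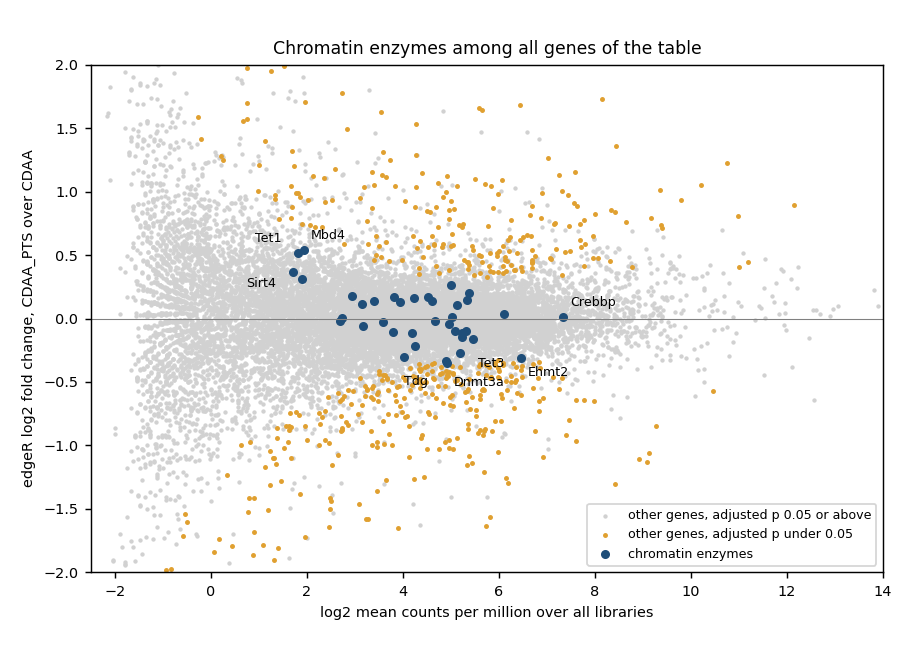
edgeR log2 fold change (CDAA_PTS over CDAA) against log2 mean CPM for all 15115 genes: grey, not called; orange, adjusted p under 0.05; dark blue, the 38 enzymes. The enzymes lie between -0.35 (Tdg) and 0.54 (Mbd4), and Dnmt3a, at -0.33, has 11.9% of all genes below it. Outside the axes lie 134 genes.

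The DESeq2 intervals give precision on a moderated scale, so they do not bound the unmoderated changes that could have been missed. The DESeq2 SE of the enzymes ran from 0.08 for Sirt2 to 0.20 for Tet1 in the authors' deposited table, and the intervals of 34 enzymes lay within 1.5-fold in either direction. The intervals that reached past it were those of Dnmt3b, Tet1, Mbd4 and Sirt4, with means between 3.28 and 3.81 CPM. The intervals of 7 enzymes left out 0: Dnmt3a, Tet3, Tdg and Ehmt2 on the lower side and Tet2, Mbd4 and Sirt5 on the higher side. The same 7 enzymes had an unadjusted DESeq2 p under 0.05 in the authors' deposited table, where 14.3% of all genes did. That p rests on the same value and SE as the interval, so it adds no separate evidence. The DESeq2 fold changes are moderated toward 0, with a median of 0.92 of the edgeR value over the enzymes and 0.65 for Tet1, the lowest.

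A wider list of 129 partners, readers and other modifiers of the same systems was read alongside the enzymes, and 121 of them were listed, Rcor1 with 2 rows. Of the 122 rows, 1 rose, 2 fell and 119 did not pass, a share of 2.46% against 3.41% of all genes, with a median edgeR log2 fold change of -0.01. Jmjd1c, a JmjC-domain protein of the H3K9 demethylase family, rose to 18.7 FPKM in CDAA_PTS, against 14.8 FPKM in CDAA livers. Kdm6b, the H3K27 demethylase JMJD3, fell to 6.04 FPKM in CDAA_PTS, against 8.23 FPKM in CDAA livers. Gadd45a, a stress-induced protein that has been linked to DNA repair and demethylation, fell to 14.4 FPKM in CDAA_PTS, against 20.2 FPKM in CDAA livers. Their edgeR log2 fold changes in the authors' deposited table were 0.34, -0.44 and -0.51 (adjusted p 0.0337, 0.015 and 0.0465). Cuffdiff called Kdm6b and Gadd45a (adjusted p 0.0414 and 0.0297) but not Jmjd1c (adjusted p 0.177) in the authors' deposited table. It also called Gadd45g, a relative of Gadd45a, with 20.3 FPKM in CDAA_PTS and 30.5 FPKM in CDAA livers (log2 ratio of -0.59, adjusted p 0.00187), for which the authors' deposited table gives an edgeR value of -0.54 (adjusted p 0.343).

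**Figure D4:**
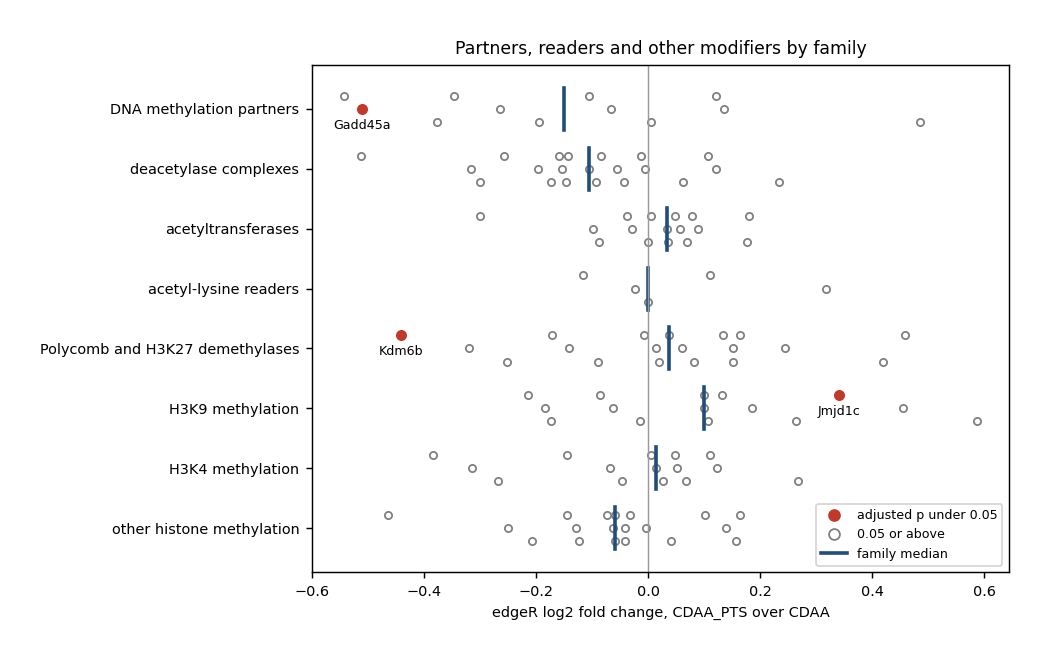
edgeR log2 fold change (CDAA_PTS over CDAA) of the 122 measured rows of the wider list, by family: filled points had an adjusted p under 0.05, open points did not, and bars mark family medians. Gadd45a (-0.51), Kdm6b (-0.44) and Jmjd1c (0.34) are the filled points; the family medians lie between -0.15 and 0.10.

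By family, the deacetylase complex subunits had 0 of 21 rows called, with 4 at an unadjusted edgeR p under 0.05 in the authors' deposited table and a median log2 fold change of -0.11. The H3K4 methylation genes had 0 of 15 called and 3 at that unadjusted level, and the other acetyltransferases 0 of 16 called and 1 at that level, by edgeR in the authors' deposited table. The unadjusted shares of these families were 19%, 20% and 6.25%, against 14.6% of all genes, while 3.41% of all genes were called by edgeR. The partners of DNA methylation had the lowest family median, -0.15 over 12 genes, and the H3K9 family the highest, 0.10 over 15.

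Markers of the cell types in liver were compared in the same way. The hepatocyte list (7 genes), macrophage list (7), T and NK cell list (7), stellate cell and fibroblast list (6 measured), endothelial list (4 measured), cholangiocyte list (4) and proliferating cell list (7) held 0 called genes by edgeR in the authors' deposited table, against 3.41% of all genes. Lists this short can hold no called gene at such a share. An unadjusted edgeR p under 0.05 was reached by 1 gene in each of the hepatocyte, macrophage, endothelial and proliferating cell lists in the authors' deposited table, against 14.6% of all genes. The median edgeR log2 fold changes lay between -0.07 for the endothelial list and 0.36 for the T and NK cell list in the authors' deposited table. The smallest edgeR adjusted p of the T and NK cell list was 0.654. Its genes other than Cd4 were scarce, at 3.76 mean CPM or less. Cd4, at 41.4 mean CPM, had an edgeR log2 fold change of -0.01 and Gzmb one of -0.02, while the rest were above 0. The proliferating cell markers summed to 50.2 FPKM in CDAA_PTS and 47.7 FPKM in CDAA livers and had a median edgeR log2 fold change of 0.14, beside the values of Dnmt1 and Ezh2 above. Pcna alone had 23.3 FPKM in CDAA_PTS and 20.9 FPKM in CDAA livers. The proliferating cell markers did not share a direction: the authors' deposited table gives edgeR log2 fold changes of -0.41 for Mki67 (adjusted p 0.534) and -0.36 for Mcm2 (adjusted p 0.106), the smallest adjusted p of the proliferating cell list, while the other 5 were above 0. No B cell marker had a row. Alb, the defining hepatocyte marker, is listed at 0 FPKM in both groups although its mean was 107899 CPM, so an FPKM of this table can be a failed estimate. The parts of cell composition and of the kind of tissue piece (tumour, nodule or normal) in the Dnmt3a value were not tested.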

How the data were processed

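The file used is a table of the authors' comparison of CDAA_PTS with CDAA livers, 4 rats each, made from TruSeq libraries of Trizol-extracted RNA, per the labels' protocols. Build rn6 and the tools TopHat2, Cufflinks, FastQC, edgeR and DESeq2 are named in the submitters' processing notes, with no versions, settings or filters. The authors' DESeq2 block gives a signal (mean count over size factors), a log2 fold change with its SE, a Wald score and p-values. From edgeR, the authors give log2 fold change, log2 mean CPM and p-values. The deposited Cuffdiff block gives 1 FPKM per group, their log2 ratio, a score and p-values. The table has 0 columns of values per rat, so depth and spread per library are unknown, and p-values rest on the authors' fits. Rats were housed in pairs, but the labels do not say which shared a cage or whether libraries record strand. The 3 tools share the same libraries.

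Direction was checked against the FPKM values: 512 of 514 genes called by the authors' edgeR test with a finite ratio had the matching sign. Benjamini-Hochberg adjustment was tested on simulated data and matched the adjusted p-values of the authors' edgeR columns. Tables were handled with Python 3.11.15 and pandas 2.3.3. The members, the lists and the rules were chosen with earlier results of these data known: all enzymes are named, and of the wider list those past the threshold in the authors' edgeR columns, while Gadd45g, Kmt2d, Rbbp4, Chd3, Chd4 and Prmt2 were named after their values were seen. The values of 1 gene of the wider list are not reported here. Alternatives were the authors' DESeq2 columns, the authors' Cuffdiff columns, adjusted p thresholds of 0.1 and 0.01, a mean log2 CPM of at least 1, and pseudocounts of 0.1 and 1 on FPKM.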

Additional observations from a re-analysis of the deposited data

How the results depend on the processing

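The table holds no values per rat, so leaving out each rat was not run. No paired analysis was possible because the columns hold whole comparisons and carry no rat numbers. The count of 1 enzyme called by edgeR was also 1 with DESeq2, at an adjusted p under 0.1, with only genes of a mean log2 CPM of at least 1 (Dnmt3a adjusted p 0.0422) and with Suv39h1l1 counted as Suv39h1, an alternative chosen after seeing the data. The looser threshold and the added Suv39h1l1 row could only raise the count, so they do not test the call of Dnmt3a. The abundance filter kept all 38 enzymes and removed other genes only, leaving 12131 genes, of which 514 were called. The unadjusted p of Dnmt3a stayed the same and was adjusted over fewer genes, so this filter is no separate test of its call. The count was 0 at an edgeR adjusted p under 0.01, where 1.41% of all genes are called, and 0 with Cuffdiff, which calls 5.51% of tested genes and gives 4 of the 37 enzymes it tested an unadjusted p under 0.05, against 14.9% of all genes tested. Dnmt3a stood at -0.37 in Cuffdiff, without a call. Suz12 turned to 0.012 in Cuffdiff, against -0.02 in edgeR; the other 37 enzymes had 1 sign in all 3 tools. The median log2 fold change was 0.01 in edgeR and in each of its 5 alternatives. The wider list had 5 rows called with DESeq2, against 3 with edgeR; Kmt2d was among those added. The Cuffdiff count was also 3, with Gadd45g called and Jmjd1c not. The causes of these differences were not tested. Depth per library is unknown, and the enzymes under 4 mean CPM have the widest intervals.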

Other observations

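Subunits of the NuRD complex, which couples nucleosome remodelling to deacetylation and includes both methyl-CpG proteins and deacetylases of the list, were mostly below 0, without a call. This grouping was made after the values were seen and was not tested. Of 13 measured subunits, 11 had an edgeR log2 fold change below 0 and 2 above, with a median of -0.14, where 49% of all genes lie below 0, and 0 were called while 3 had an unadjusted edgeR p under 0.05 in the authors' deposited table, where 3.41% and 14.6% of all genes did. Those with the lowest values were the histone chaperone Rbbp4 and the remodelling ATPase Chd3, for which the authors' deposited table gives edgeR values of -0.51 (adjusted p 0.070) and -0.32 (adjusted p 0.103). The related ATPase Chd4 stood at -0.14 (adjusted p 0.629) by edgeR in the authors' deposited table, with 38.8 FPKM in CDAA_PTS and 42.6 FPKM in CDAA livers.

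The arginine methyltransferase Prmt2, singled out after its values were seen, had an edgeR log2 fold change of -0.46 (adjusted p 0.0643) but a Cuffdiff ratio of 0.14 (adjusted p 0.966) in the authors' deposited table. Its level was 27.9 FPKM in CDAA_PTS and 25.3 FPKM in CDAA livers beside a mean of 9.34 CPM. The length implied by mean CPM over FPKM was 11482 bases for Crebbp and 2839 bases for Ep300 and 351 bases for Prmt2, so FPKM and counts of the same gene are not on one footing in this table. Sirt1 and Tet1 start at 26833356 and 27366212 on chromosome 20 of rn6 as the table gives them, and neither was called.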
